A study of Glycine max with 6 samples.

Results

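The 6384 regions described here are places near the ends of the soybean chromosomes where the protein GLYMA.04G093300 was found by all 4 immunoprecipitated libraries of a chromatin immunoprecipitation and sequencing (ChIP-seq) experiment. In ChIP-seq, DNA crosslinked to a protein is pulled down with an antibody, sequenced and compared with total chromatin, and a peak is an interval where the pull-down holds more fragments than the local background. Intervals of the 4 deposited peak lists that shared at least 1 base were merged, and regions with a peak in every list were kept. Members were those whose summit lay in the outermost 10% of a chromosome at either end. On the 20 chromosomes, 15390 of 63874 merged regions, 24.1%, were found in all 4 lists, and 6384 of these were members. That is 41.5% of the shared regions (95% Wilson interval 40.7 to 42.3, counting error only) in 20% of the length, against 40.5% of all merged regions in the same zones. The choice used presence in the lists and position, so the number, density and strength of the members are given as a description, with no test.

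Embryos of the soybean cultivar Williams 82 were dissected at early maturation, from seeds of 6 to 7 mm, and fixed with formaldehyde. All libraries came from such embryos, and the labels name no transgene, mutation or treatment that separates them. Ab1 and Ab2 are antibodies against different peptides of the protein (the labels give residues 117 to 132 and 170 to 180), and each precipitated chromatin from 2 biological replicates, with total chromatin of 2 libraries as input. Whole embryos mix cell types, no control immunoprecipitate was among the libraries, and peak lists cannot show whether the tissue label holds. The names of the deposited peaks carry the tag HB22, which the labels do not explain.

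Early maturation is the phase in which cell division in the embryo gives way to growth and the storage of protein and oil. Soybean chromosomes carry most of their genes in the arms, toward the ends, while the middle around the centromere is rich in repeated DNA and poor in genes and in crossing over. Gene positions were not used here, so members are given by position on the deposited coordinates. The sources used here name no build for them. "Low-coordinate end" means the end where numbering starts, and "high-coordinate end" the other. The low limit was coordinate 0 and the high limit the last peak of any list.

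The lists held 59261 and 44181 peaks for Ab1 replicates 1 and 2 and 28010 and 21291 for Ab2 replicates 1 and 2. Total reads are unknown. Fragment numbers recovered from the deposited values had a median of 26, 35, 19 and 18 at the peak summits of the chromosomes, in the same order. The chromosomes measured 34.8 to 58.0 Mb and their end zones 3.48 to 5.80 Mb each.

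Members stood at 33.6 per Mb, against 11.9 per Mb in the chromosome interiors and 16.2 per Mb over all chromosomes. The ends were thus 2.84 times as dense as the interiors, and members covered 2.35% of the end zones where shared regions covered 0.812% of the interiors. The interiors were not even. Over all chromosomes, the stretches just inward of the end zones, of the same length as them, held 4468 of the 9006 interior shared regions, against 6384 members. The rest of the interiors, which is longer, held 4538. The density thus fell inward by degrees, and the high density was not confined to the end zones. Being at an end was not particular to regions found in all 4 lists. The share at ends was 39.7% (39.1 to 40.3) for regions of 1 list, 40.7% (39.9 to 41.5) for 2 lists and 40.8% (39.8 to 41.7) for 3 lists. Read the other way, 24.7% (24.1 to 25.2) of the 25888 merged regions at ends were found in all 4 lists and 23.7% (23.3 to 24.1) of the 37986 in the interiors, against 24.1% over all of them.

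Each library put a similar part of its peaks at the ends. Ab1 replicates 1 and 2 had 40.7% and 41.0% of their peaks there, and Ab2 replicates 1 and 2 had 41.0% and 41.4%. The mean share was 40.9% ± 0.170 (SD, n = 2) with Ab1 and 41.2% ± 0.266 (SD, n = 2) with Ab2. Both Ab2 libraries lay above both Ab1 libraries, and the mean of Ab1 minus that of Ab2 was -0.364 percentage points (two-sided exact permutation test, p = 0.333, the smallest that 2 libraries against 2 allow). A difference between the antibodies was therefore not shown. The lists differed far more in how much of their end signal belonged to members, at 27.3% and 38.8% of the end peaks for Ab1 and 63.1% and 80.7% for Ab2, and the longer lists had the lower share.

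Peaks outside the shared regions had no part in choosing the members and gave a separate measure of the same pattern. Such peaks stood at 92.1 per Mb at ends and 33.9 per Mb in interiors in Ab1 replicate 1, and at 58.1 and 21.2 in Ab1 replicate 2. The densities were 22.2 and 8.42 per Mb in Ab2 replicate 1, and 8.94 and 3.20 in Ab2 replicate 2. Their ratio of end to interior was 2.72, 2.74, 2.64 and 2.80 in these libraries. On the log2 scale the mean was 1.45 ± 0.03 (SD, n = 4), higher at ends in 4 of 4 libraries (two-sided exact sign-flip permutation test, p = 0.125, the smallest that 4 libraries allow). The 4 libraries come from 2 biological replicates, so they are not 4 independent experiments.

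**Figure D1:**
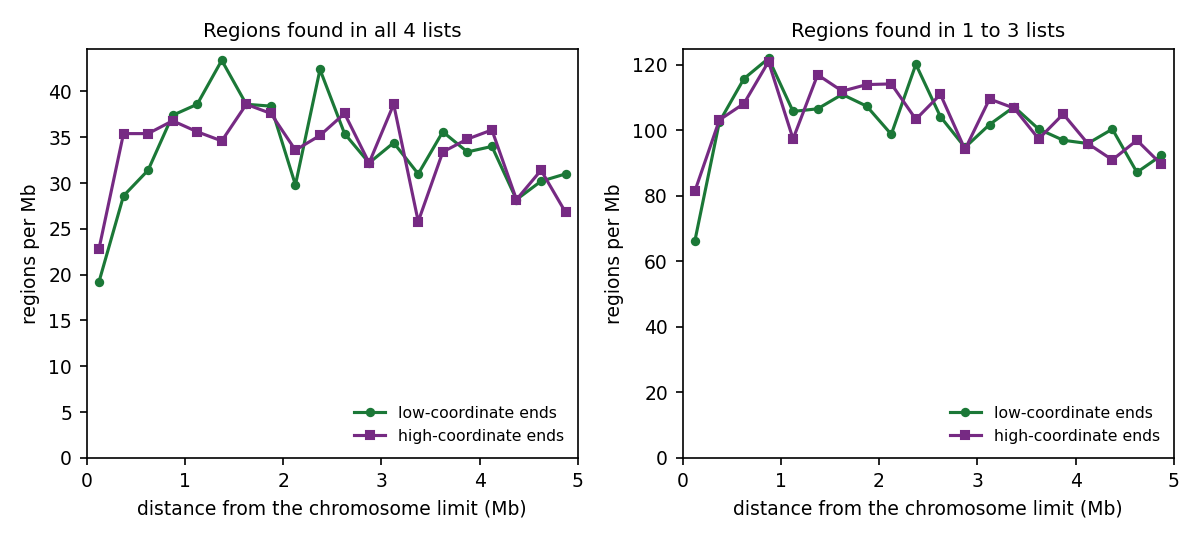
Regions per Mb (y axis, from 0) against distance from the chromosome limit in Mb (x axis, bins of 250 kb), averaged over 20 low-coordinate (circles) and 20 high-coordinate ends (squares), for regions of all 4 lists (left) and of 1 to 3 lists (right). Over both ends, both kinds of region are thinnest in the outermost bin, at 21.0 and 73.8 per Mb, and lie between 28.2 and 39.0 and between 91.0 and 121.5 per Mb further in.

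The density of members was not highest at the very limit. The outermost 250 kb held 21.0 shared regions per Mb, the next 250 kb held 32.0, and the density reached 39.0 between 1.25 and 1.5 Mb from the limit. By 4.75 to 5 Mb it was 28.9 per Mb. Counted by percent of chromosome length, the outermost 1% held 25.4 shared regions per Mb, each further percent up to the sixth held 36.1 to 38.0, and the tenth held 29.7. The dip at the limit appeared at both kinds of end, with 19.2 per Mb at low-coordinate and 22.8 per Mb at high-coordinate ends in the outermost 250 kb. These values are not strictly alike, as low limits were coordinate 0 and high limits the last peak. Regions of 1 to 3 lists were also thinnest there, at 73.8 per Mb against 121.5 per Mb between 0.75 and 1 Mb.

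How close members came to the limits varied between ends. The outermost member lay at a median of 64.1 kb from the limit over the 40 ends, and within 100 kb at 26 of them. The member nearest to a low limit was on chromosome 20 from 14154 to 14876, with fold enrichment of 4.66 and 7.32 with Ab1 and 6.06 and 6.21 with Ab2. Fold enrichment is the ratio of fragments at the summit to the local background, as computed by the authors' peak caller. On chromosome 16 the last member, from 37863126 to 37863432, reached the last peak of the chromosome, with its summit 0.158 kb from the limit and folds of 6.96, 6.72, 5.48 and 6.24. The widest bare stretches at a limit were 371 kb at the low end of chromosome 19 and 353 kb at the low end of chromosome 1. High limits were set at the last peak, so bare sequence beyond it was not counted. Distances at low and high ends are therefore not alike, and low ends can more easily hold the widest.

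**Figure D2:**
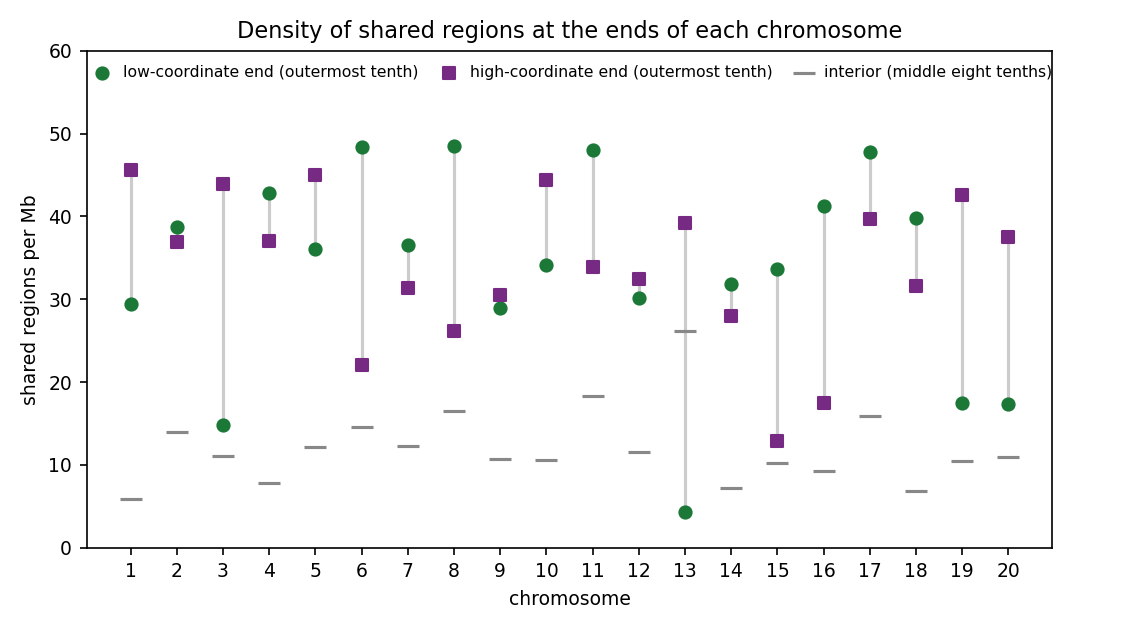
Shared regions per Mb (y axis, from 0) at the low-coordinate end (circles), the high-coordinate end (squares) and in the interior (dashes) of each of the 20 chromosomes (x axis). End densities range from 4.36 to 48.6 per Mb, and the low end of chromosome 13 is the only end below the interior of its own chromosome.

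The 40 ends differed more than 10-fold in density. Their median was 35.1 members per Mb, with quartiles of 29.3 and 41.5, and 37 of the 40 lay above the density of all chromosomes. The densest were the low ends of chromosome 8 with 48.6 per Mb (95% Poisson interval 42.5 to 55.2), chromosome 6 with 48.3 (42.5 to 54.7), chromosome 11 with 48.0 (41.0 to 55.9) and chromosome 17 with 47.8 (41.4 to 54.9), followed by the high end of chromosome 1 with 45.6 (40.2 to 51.5). The counting intervals of these 5 overlap, so their order is not resolved. The sparsest was the low end of chromosome 13 with 4.36 per Mb (2.66 to 6.73), whose interval is clear of every other end. The high end of chromosome 15 followed with 12.9 (10.0 to 16.4), the low end of chromosome 3 with 14.9 (11.5 to 18.8), the low end of chromosome 20 with 17.3 (13.8 to 21.5) and the high end of chromosome 16 with 17.4 (13.5 to 22.2). The intervals of these 4 overlap.

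On 7 chromosomes the share of the end members at the low end differed from 50% by less than its counting interval. Chromosome 2 had 188 members at the low and 179 at the high end, and chromosome 9 had 145 and 153. Chromosome 12 had 121 and 130, chromosome 14 had 156 and 137, and chromosome 7 had 163 and 140. Chromosome 4, the chromosome named in the identifier of the studied gene, had 224 and 194, and chromosome 17 had 199 and 165. Both ends of these chromosomes were 2.49 to 5.50 times as dense as the interior of the same chromosome.

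On 6 chromosomes the low end held more. Chromosome 15 had 174 members at the low and 67 at the high end, a ratio of 2.60, and chromosome 16 had 156 and 66, a ratio of 2.36. Chromosome 6 had 248 and 113, a ratio of 2.19, and chromosome 8 had 232 and 125, a ratio of 1.86. The difference was smaller on chromosome 11, with 167 and 118, and on chromosome 18, with 231 and 183. The sparser end of each was still denser than the interior of its chromosome, by 1.26 times on chromosome 15, 1.51 on chromosome 6 and 4.60 on chromosome 18.

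On the other 7 chromosomes the high end held more. Chromosome 13 had 20 members at the low and 180 at the high end, a ratio of 9, and chromosome 3 had 68 and 201, a ratio of 2.96. Chromosome 19 had 89 and 216, a ratio of 2.43, and chromosome 20 had 83 and 180, a ratio of 2.17. Chromosome 1 had 167 and 259, chromosome 10 had 176 and 229, and chromosome 5 had 152 and 190. The 5 largest ratios between ends thus fell on chromosomes 13, 3, 15, 19 and 16, and 7 chromosomes had a ratio of at least 2. The sorting into these groups used counting intervals that take members as independent. Chromosomes 5 (39.3 to 49.7% at the low end), 17 (49.5 to 59.7%) and 18 (51.0 to 60.5%) lay close to the line.

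The asymmetries cancelled over the genome. All low ends together held 3159 members and all high ends 3225, so that 49.5% (48.3 to 50.7) were at low ends, and 11 chromosomes had the denser end at the low and 9 at the high side. The denser end of a chromosome was the same in each of the 4 lists and among the shared regions on 18 of the 20 chromosomes. The exceptions, chromosomes 2 and 12, were among those with near-equal ends. The lists include the peaks of the members, so lists and shared regions match in part by construction. Regions of 1 to 3 lists also had the same denser end on 18 of 20 chromosomes. For chromosome 13, the low end held 9.52% and 9.79% of the end peaks with Ab1 (replicate 1, then replicate 2) and 10.7% and 11.96% with Ab2. For chromosome 15 the low end held 71.2% and 70.7% with Ab1 and 70.7% and 71.4% with Ab2.

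**Figure D3:**
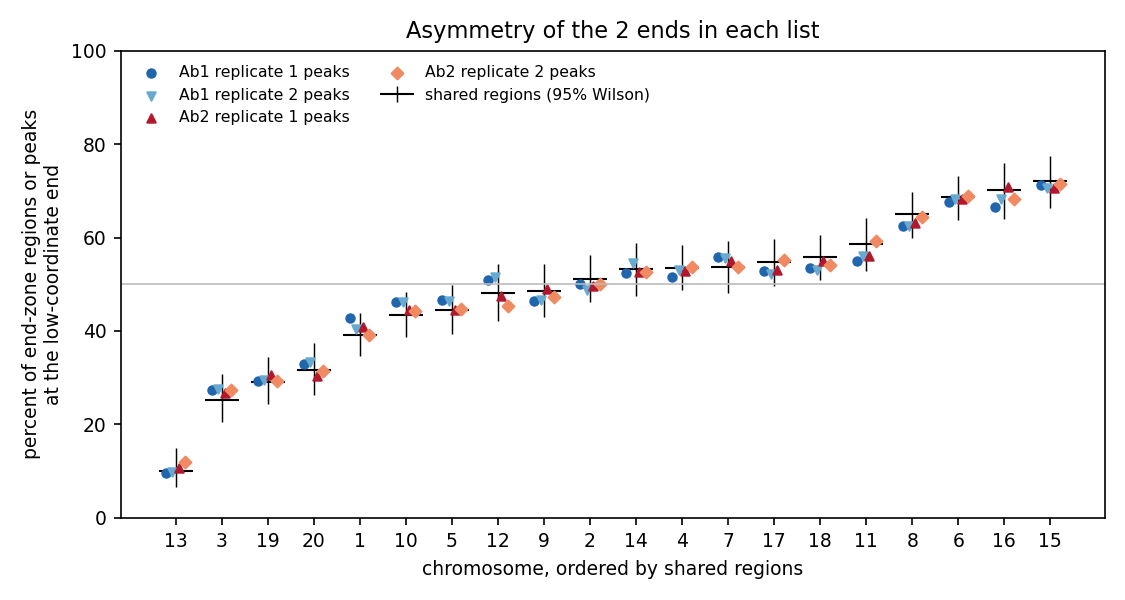
Percent at the low-coordinate end (y axis) of the peaks of each list in the end zones (coloured symbols) and of the shared regions with 95% Wilson intervals (black), for each chromosome (x axis, ordered by the shared regions). The lists lie lowest on chromosome 13, at 9.52 to 11.96%, and spread most on chromosome 12, from 45.3 to 51.5%. They lie highest on chromosome 15, at 70.7 to 71.4%, except Ab2 replicate 1, which is highest on chromosome 16, at 70.9%.

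The low end of chromosome 13 stood apart from all others. Its 20 members all lay in the first 3 Mb, with 6, 9 and 5 in successive steps of 1 Mb, and the last had its summit at 2.74 Mb. Between there and 10 Mb the chromosome held 1 further shared region, although its interior as a whole was denser than that of any other chromosome, at 26.2 per Mb. With Ab1 the median fold of the 20 members was 7.57 in replicate 1 and 6.27 in replicate 2, and with Ab2 it was 5.41 and 5.68, against 7.70, 6.03, 5.94 and 5.57 over all members. The value of 5.41 was the lowest of the 40 ends in Ab2 replicate 1. The strongest of them, named after its values were seen, lay from 1631568 to 1632877 with folds of 17.5 and 15.3 with Ab1 and 14.7 and 13.6 with Ab2. The share of merged regions found in all 4 lists was 27.4% at this end, against 20.3 to 28.1% over the 40 ends. Few regions of any kind were found there, at 11.6 unshared regions per Mb against a median of 111 over the 40 ends.

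The other sparse ends differed in where they thinned. The low end of chromosome 3 held 21, 20, 13 and 11 shared regions in its first 4 steps of 1 Mb, and the low end of chromosome 20 held 29, 23, 12 and 8. The high end of chromosome 15 held 17, 14, 10 and 17, and the high end of chromosome 16 held 26, 29, 7 and 16. The first 2 Mb of chromosomes 3 and 20 and the last 2 Mb of chromosome 16 were thus above the density of all chromosomes. Dense ends differed in how far they continued inward. Counting from the limit, steps of 1 Mb with at least the density of all chromosomes ran unbroken for 27 Mb from the high end of chromosome 13, 19 Mb from the low end of chromosome 8 and 18 Mb from the low end of chromosome 6, with a median of 7.5 Mb over the 40 ends. The run was 4 Mb at the high end of chromosome 17, which fell from 39.6 to 6.97 per Mb in the next 10% of length. It was 0 at 4 ends, among them the high end of chromosome 12, whose outermost 1 Mb held 15. The next 10% of length was denser than the end itself at 5 of the 40 ends, among them the high end of chromosome 13 with 44.0 against 39.2 per Mb and the high end of chromosome 16 with 23.2 against 17.4.

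Chromosomes also differed in how far shared regions were drawn to the ends. On chromosome 1 the ends held 61.4% of the shared regions, at 6.36 times the density of the interior. Chromosomes 18 and 4 followed at 5.21 and 5.13 times. Chromosome 13 was at the other limit, with 17.2% of its shared regions at the ends and a ratio of 0.832. The median over the 20 chromosomes was 2.76 times.

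Over the 40 ends, the density of members rose with the density of regions found in 1 to 3 lists, with a Spearman correlation of 0.912 and a Pearson correlation of 0.953, or 0.942 without the low end of chromosome 13. These are descriptions over 40 ends that share the same libraries, depth and peak calls. Density of members and their median fold had a Spearman correlation of 0.01 and a Pearson correlation of 0.08 over the same ends.

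**Figure D4:**
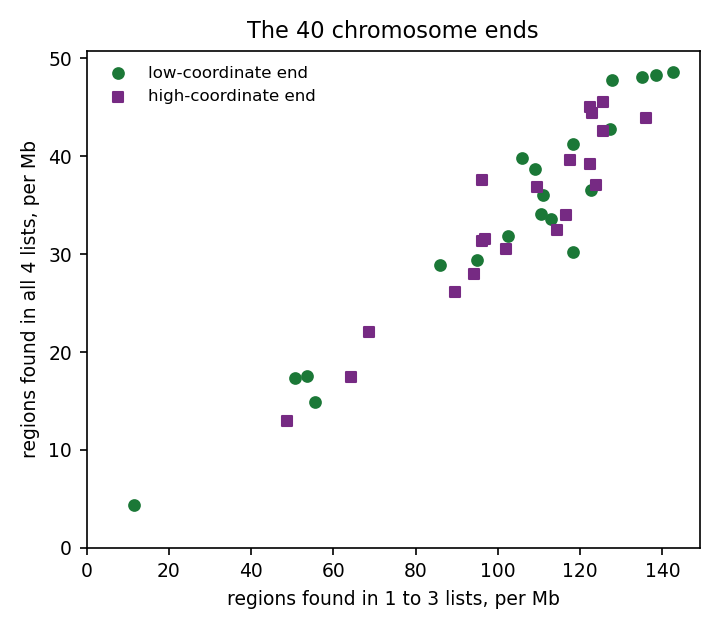
Density of regions found in all 4 lists (y axis, per Mb) against that of regions found in 1 to 3 lists (x axis, per Mb) for the 40 chromosome ends, low-coordinate as circles and high-coordinate as squares. The points rise together from the low end of chromosome 13, at 4.36 and 11.6 per Mb, to the low end of chromosome 8, at 48.6 and 143 per Mb.

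In strength, members were slightly above interior shared regions. With Ab1 the median fold enrichment was 7.70 at ends and 7.58 in interiors for replicate 1, and 6.03 at ends and 5.92 in interiors for replicate 2. With Ab2 it was 5.94 and 5.90 for replicate 1, and 5.57 and 5.48 for replicate 2. All 4 libraries had the higher median at the ends, by 0.02 ± 0.01 on the log2 scale (mean and SD, n = 4). With regions shared by the 3 remaining lists, the mean was 0.0107 without Ab2 replicate 2, 0.0136 without Ab2 replicate 1 and 0.0144 without Ab1 replicate 2, against 0.0212 with all 4. Among members in Ab1 replicate 1, the quartiles of fold were 6.12 and 9.70. The recovered background at the summit moved in the same direction in some libraries, at 1.02 and 1.03 times the interior median in the replicate 1 libraries of Ab1 and Ab2 and 1.00 times in both replicate 2 libraries. Its part in the result was not tested. The difference did not hold in every part of the ends. With Ab2 replicate 1 the median fold was 5.90 at high ends, as in the interiors. In the outermost 1% it was 7.43 and 5.84 in the replicate 1 libraries of Ab1 and Ab2, below the interiors. In the replicate 2 libraries it was 6.05 and 5.59 there, above the interiors. The next 10% of length inward had 5.97 with Ab2 replicate 1, above the ends, and lower medians than the ends in the other libraries.

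**Figure D5:**
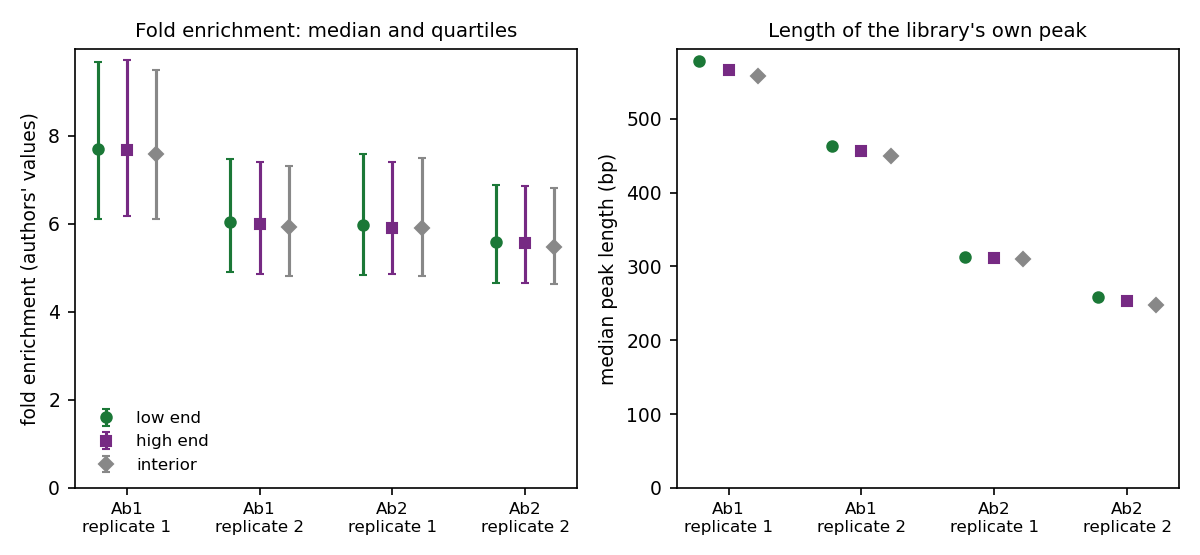
Left, median fold enrichment with quartiles (bars) of shared regions at low-coordinate ends (circles), high-coordinate ends (squares) and in interiors (diamonds) in each library. Right, median length in bp of the library's own peak in those regions; both axes start at 0. Within each library the 3 medians lie close together, at 258, 253 and 248 bp in Ab2 replicate 2.

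The range of strength was wide within the ends. Among members, fold ran from 2.42 to 24.2 in Ab1 replicate 1, 2.15 to 17.2 in Ab1 replicate 2, 2.21 to 22.7 in Ab2 replicate 1 and 2.43 to 22.1 in Ab2 replicate 2. A fold of at least 5 in all 4 libraries was reached by 2900 members, 45.4%, and by 44.4% of interior regions. A fold of at least 10 in all 4 was reached by 150 members, 2.35%, and by 2.12% of interior regions. At a bound of 15 the order turned, with 3 members, 0.047%, and 8 interior regions, 0.089%. Of the strongest 10% of shared regions by mean rank of fold, 43.7% were members, and of the weakest 10%, 40.5%, against 41.5% of all shared regions. Members made up 2 of the 10 strongest shared regions and 42 of the 100 strongest, the latter close to their share of all shared regions. Median folds of single ends ran from 7.09 at the high end of chromosome 5 to 8.28 at the high end of chromosome 12 in Ab1 replicate 1, and from 5.63 at the high end of chromosome 5 to 6.41 at the high end of chromosome 10 in Ab1 replicate 2. They ran from 5.41 at the low end of chromosome 13 to 6.60 at the high end of chromosome 7 in Ab2 replicate 1, and from 5.21 at the low end of chromosome 12 to 5.97 at the low end of chromosome 1 and the high end of chromosome 15 in Ab2 replicate 2. The denser end had the higher median fold, averaged over libraries within a region, on 11 of 20 chromosomes.

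The strongest member was on chromosome 8 from 3852375 to 3854145, at the low end, where the fold was 19.5 and 17.2 with Ab1 (replicate 1, then replicate 2) and 18.2 and 17.1 with Ab2. Its summits rested on 146, 126, 67 and 62 recovered fragments in that order. The second, on chromosome 18 from 54496836 to 54497701, had folds of 21.5 and 14.8 with Ab1 and 17.0 and 16.8 with Ab2. The strongest members were picked by mean rank of fold over the 4 libraries, so high values in every list are what chose them. At the low end of chromosome 2, the region from 869979 to 870602 had 22.3 and 16.6 with Ab1 and 14.7 and 17.1 with Ab2. On chromosome 4 from 2943532 to 2944097, also at the low end, the folds were 21.7 and 14.7 with Ab1 and 17.0 and 14.9 with Ab2. In these 4 regions Ab1 replicate 1 gave the highest fold. That library also had the highest median fold over all members, at 7.70 against 6.03, 5.94 and 5.57.

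In 3 others the mean of the Ab2 folds was above that of the Ab1 folds. The region on chromosome 19 from 4297727 to 4298293 had folds of 17.2 and 16.2 with Ab1 and 20.2 and 21.4 with Ab2, and its 4 summits lay within 22 bp. At the high end of chromosome 2, from 45775406 to 45776133, the folds were 19.8 and 12.8 with Ab1 and 22.7 and 18.3 with Ab2. The high end of chromosome 19 held a region from 45880234 to 45881212 with 22.6 and 12.5 with Ab1 and 19.3 and 17.3 with Ab2. Only the first of these 3 has both Ab2 values above both Ab1 values, and in the last Ab1 replicate 1 gave the highest fold. Folds were scaled within each library, so differences between antibodies were not tested.

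The last 3 of the 10 strongest lay on chromosomes 7, 16 and 8. On chromosome 7 from 3401589 to 3402283 the folds were 20.6, 15.8, 16.6 and 13.3, in the order Ab1 replicates 1 and 2, then Ab2 replicates 1 and 2. On chromosome 16 from 37089491 to 37090669, 773 kb from the last peak of the chromosome, they were 17.7, 16.3, 15.7 and 16.4. On chromosome 8 from 1673807 to 1674405 they were 18.1, 14.7, 15.4 and 17.2. Of the 10 strongest, 6 were at low and 4 at high ends.

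At the other limit of strength, the weakest member was on chromosome 15 from 524315 to 524617, with folds of 3.28 and 2.63 with Ab1 and 2.21 and 2.43 with Ab2. Its recovered background was 7.85, 8.43, 9.86 and 8.05, against medians of 4.66, 6.00, 2.96 and 2.68 over members. These are in fragments, except that the values of Ab1 replicate 2 are in fragments scaled by 0.881.

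Members had a median length of 608 bp, with quartiles of 469 and 837, and interior shared regions 596 bp. Within the libraries the member's own peak had a median length of 572 and 461 bp with Ab1 and 313 and 256 bp with Ab2, or 1.03, 1.02, 1.01 and 1.03 times the interior. The 4 summits of a member spanned a median of 80 bp, as in the interiors, and lay within 100 bp in 61.7% of members and 61.9% of interior regions. Low ends had slightly longer members than high ends, at 615 and 603 bp. Median length by end ran from 539 bp at the low end of chromosome 12 to 682.5 bp at the low end of chromosome 16.

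The longest member, on chromosome 11 from 3239410 to 3243395, spanned 3986 bp and was merged from 14 peaks. Its folds were 9.86 and 8.04 with Ab1 and 7.32 and 7.14 with Ab2, and its strongest summits lay up to 954 bp apart. The next, of 3025 bp on chromosome 10 from 47809098 to 47812122, was also strong, with folds of 18.6 and 16.0 with Ab1 and 14.1 and 17.4 with Ab2 and summits within 22 bp. In contrast, the member on chromosome 14 between 1379899 and 1382777, of 2879 bp, had folds of 5.67, 5.62, 5.19 and 5.25. Chromosome 8 had a member of 2838 bp from 59069 to 61906, with its summit 60.3 kb from the chromosome start and folds of 7.70, 8.64, 7.41 and 7.89. The last of the 5 longest, spanning 2822 bp on chromosome 6 between 49026882 and 49029703, had 12.8, 8.30, 9.53 and 7.36. Of the 457 shared regions of 1500 bp or more, 188 or 41.1% were members, close to the 41.5% of all shared regions.

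Neighbouring members of the same end lay a median of 15.5 kb apart, with quartiles of 5.07 and 37.0 kb and a mean of 28.7 kb. Where peaks had to overlap by 50% of both to count as shared, which left 2401 members, the median was 46.5 kb. In the interiors the median was 22.3 kb and the mean 84.2 kb, and the widest gap between neighbours was 4770 kb against 856 kb at the ends. Stretches between a member and the bound or limit of its zone were not counted as gaps. At the low end of chromosome 13 the last member lay at 2.74 Mb, and the zone ran on to 4.59 Mb without another. The median was 0.539 of the mean at the ends and 0.265 in the interiors. At the shortest distance, the shares with a close neighbour overlapped within counting error. Another shared summit lay within 2 kb of 20.1% of members (19.1 to 21.1) and 19.8% of interior regions (18.9 to 20.6). Within 5 kb the shares were 41.9% (40.6 to 43.1) and 38.0% (37.0 to 39.0). Within 10 kb they were 60.3% (59.1 to 61.5) and 53.7% (52.6 to 54.7). Close neighbours count each other, so these intervals, which take regions as independent, are too narrow to serve as a test.

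Spacing followed density from end to end, as it must in part. The median gap was shortest at the low end of chromosome 16, at 8.66 kb, and longest at the low end of chromosome 13, at 83.7 kb. The low end of chromosome 16 also had the largest share of members with a shared neighbour within 2 kb, at 37.8%, although 10 ends were denser. The high end of chromosome 11 had the smallest, at 8.47%. The closest neighbours were on chromosome 1, where regions from 5058869 to 5059268 and from 5059319 to 5060104 had summits 369 bp apart. Their folds were 9.40 and 8.75 with Ab1 and 9.24 and 7.60 with Ab2 in the first, and 5.78, 4.42, 5.44 and 4.35 in the second. Pairs on chromosomes 16 and 8 followed, with summits 395 and 430 bp apart.

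Runs of members formed where each lay at most 5 kb from the next. There were 1104 runs of 2 or more, holding 2671 members, 41.8%, and 788 of the runs were pairs. In the interiors 38.0% of shared regions stood in such runs. The longest had 8 members. The run on chromosome 8 from 45730305 to 45741793 packed 8 regions with mean folds of 5.11 to 9.60 into 11.5 kb, at an end of below-median density. The run on chromosome 9 from 4123079 to 4138777 had 8 with mean folds of 5.57 to 13.6. In windows of 100 kb on a fixed grid, the most members were 13, in windows that begin at 40.4 Mb on chromosome 5, 45.7 Mb on chromosome 8 and 49.2 Mb on chromosome 10, all at high ends. The next 2 windows held 12 each, beginning at 52.7 Mb on chromosome 1 and 2.8 Mb on chromosome 11. The widths of 5 and 100 kb were chosen with results of these data known.

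The bound at 10% of length cut through a continuous spread of regions. The last member inside the low bound was on chromosome 1 from 5680411 to 5680923, at 0.09997 of the length, with folds of 6.63, 6.46, 5.48 and 7.14. On chromosome 4, the member from 5232878 to 5233492, at 0.09994, had folds of 9.31, 7.43, 5.17 and 5.97, and its neighbour from 5237810 to 5238708, at 0.10003 and so not a member, had 8.59, 4.93, 6.31 and 5.16. The other region just outside, on chromosome 6 from 5133753 to 5134264, had 9.89, 6.58, 7.16 and 5.70. At the high bound the first members inside were on chromosome 2 from 43712525 to 43713357, with 8.66, 5.17, 6.85 and 4.97, and on chromosome 3 from 41189114 to 41189633, with 11.4, 11.98, 9.38 and 10.3. Just outside lay regions on chromosome 9 from 45152186 to 45152697, with 7.71, 6.85, 6.51 and 5.21, and on chromosome 18 from 52171319 to 52172773, with 12.4, 12.8, 11.0 and 12.3. Values on the inner and outer side of the bound overlapped.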

How the data were processed

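Peak lists of 4 immunoprecipitated libraries were analysed, 1 list per library, grouped by sample title. Reads were aligned with Bowtie 0.12.7 and peaks called with MACS2, per the submitters' processing notes; the MACS2 version and the genome build are not given in the sources used here. The fold enrichment, a ratio within each library, was computed by the authors and used as deposited. Significance was deposited as −log10 of the p-value and of the q-value, with no q above 0.01 in any list. A score deposited by the authors as whole numbers entered no result. The offset of the summit was also deposited.

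Intervals sharing at least 1 base were merged. A region's summit is that of its peak with the highest −log10 p, and its fold in a library that of the library's strongest peak. Scaffolds, which held 0.484 to 0.550% of the peaks, were left out, and input entered no step here. Fragments and background at each summit were recovered from fold and p, assuming a Poisson tail and 1 added to both in the ratio; whole fragment numbers gave the deposited −log10 p within 0.005 for 100% of peaks, with a pile-up scale of 0.881 needed for Ab1 replicate 2. The step was tested on simulated data. Intervals are 95% Wilson or exact Poisson and cover counting error only. They take regions as independent, although many stood in runs, so they may be too narrow. Regions named are the 10 strongest and 5 longest members, those next to the bounds and limits, the 3 closest pairs, the 5 densest and sparsest ends, the 5 largest ratios between ends and the 5 fullest windows; the weakest member, a member of chromosome 13 and the longest runs were chosen after their values were seen. Members, bounds and lists were chosen with earlier results of these data known. The design text names 2 biological replicates for both antibodies, and replicate numbers were read as pairing the libraries. Over members, replicate differences in log2 fold of Ab1 and Ab2 correlated at r = 0.371 across regions, which are not replicates. Recovered background had Spearman correlations of 0.732 between the replicate 1 libraries and 0.704 between the replicate 2 libraries. Between libraries of unlike number they were 0.081 and 0.073. Fold is a ratio to this background, so r alone does not establish the pairing. Motifs and genes were not analysed here. Python 3.11.15, numpy 2.4.6, pandas 2.3.3, scipy 1.17.1 and matplotlib 3.10.9 were used.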

Additional observations from a re-analysis of the deposited data

Results flagged for a closer look

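The comparisons above leave out 83 regions with a peak in all 4 lists that were on scaffolds, which have no ends that can be placed on a chromosome. They came from 348 merged regions on scaffolds, and a single scaffold held 30 of them. That is a share close to the 24.1% of merged regions found in all 4 lists on the chromosomes, 15390 of 63874.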

How the results depend on the processing

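Of 105 alternatives, 84 kept a result within its spread, within 1.5 times of a count or on its side of the threshold, 21 moved a result and 0 reversed it. Neither tested result could pass the threshold at these sample sizes, so for them only the direction was tried. With 50% reciprocal overlap the members were 2401, with a median gap of 46.5 kb and a length ratio of 1.03. With the outermost 5% they were 3280, 21.3% of shared regions, with a density ratio of 2.44 and a length ratio of 1.03; the outermost 5 Mb held 43.6%, and the outermost 20% held 70.5% at a ratio of 3.59. A −log10 q of at least 5 gave a gap of 19.9 kb and a log2 fold difference of 0.0127, and equal list length a gap of 21.0 kb and a length ratio of 1.03. With −log10 p in place of fold the log2 difference was 0.0299. Without chromosome 13 the share at ends was 43.5%, the density ratio 3.08 and the share at low ends 50.8%; this and the 20% width were chosen after seeing the data. Fewer or narrower zones and fewer shared regions follow from these settings by construction; other causes were not tested. Leaving out 1 library gave 6458 to 9288 members, a share at ends of 41.2 to 41.6%, density ratios of 2.80 to 2.85, log2 fold differences of 0.0107 to 0.0160, length ratios of 1.02 (1.018 to 1.022), gaps of 10.7 to 15.3 kb and 49.4 to 49.5% at low ends. It gave Ab1 minus Ab2 differences of -0.552 to -0.176 points in the share of peaks, and 1.39 to 1.45 for the log2 ratio of peaks outside shared regions. With the replicate number as a block, paired by number, the antibody difference was -0.364 points and the log2 ratio 1.45 (exact sign-flip p = 0.5 for each, the smallest that 2 pairs allow), and no call changed. Median summits held 18 to 35 fragments, and how depth bears on weak regions was not tested.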
